A study of Mus musculus with 72 samples.

Results

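The results concern 10 liver genes for enzymes that oxidise or reduce alcohols and retinoids: the alcohol dehydrogenases Adh1, Adh4 and Adh5, the aldehyde dehydrogenases Aldh1a1 and Aldh2, the retinol dehydrogenases Rdh16, Rdh16f2, Rdh7 and Rdh11, and Hsd17b6. They were chosen by gene symbol out of 51912 genes in the count table. All 10 were among the 12712 genes that passed a filter on low counts. The mean level of these genes and their course over the day in these same libraries were in view when the group was put together, so their levels, rhythms and differences between feeding paradigms are given as a description, without p-values.

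Alcohol dehydrogenases oxidise alcohols, ethanol and retinol included, to aldehydes, and aldehyde dehydrogenases oxidise the aldehydes to acids. In vitamin A metabolism the step between retinol and retinaldehyde is reversible and is run by membrane-bound retinol dehydrogenases and by cytosolic alcohol dehydrogenases. The step from retinaldehyde to retinoic acid, the ligand of nuclear receptors, is irreversible. The liver stores most of the body's vitamin A, in stellate cells, and clears most ingested ethanol, in hepatocytes.

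Liver RNA was counted in 72 libraries by sequencing of transcript 3′ ends. All animals were wild-type male C57BL/6J mice with a starting age of 43 to 49 days, kept in 12 h of light and 12 h of dark with free access to water. The 4 groups were arrhythmic feeding to which the animals were incompletely adapted, arrhythmic feeding, night-restricted feeding, and ad libitum feeding. Both arrhythmic groups were labelled with the same feeding paradigm. The label of the incompletely adapted group adds only that the animals did not adapt fully. By their labels these 2 groups thus differ in adaptation. Whether they also differed in when food was eaten cannot be told from the labels. For brevity each of the 4 groups is called a paradigm below. Each paradigm had 18 libraries, 3 at each of ZT02, ZT06, ZT10, ZT14, ZT18 and ZT22 (zeitgeber time, hours after lights on). Whether the 3 replicates were 3 animals is not stated in the labels, so errors and tests measure only the spread between these libraries, which may be in part technical. The sources used here do not give the timing of meals or the measure of adaptation.

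Total counts per library ran from 6017962 to 7972905 under incompletely adapted arrhythmic, from 5628818 to 7806974 under arrhythmic, from 4342026 to 12286021 under night-restricted and from 6701379 to 11167161 under ad libitum feeding. The fewest reads on any of the 10 genes in any library were 39, for Rdh11. Hepatocyte markers (6 of 6 genes tested) summed to medians of 24181, 25659, 24657 and 21812 CPM (counts scaled to the same total in each library) under incompletely adapted arrhythmic, arrhythmic, night-restricted and ad libitum feeding, and stellate cell markers (9 of 9 tested) to medians of 243, 257, 236 and 220 CPM in the same order. No marker of the 11 lists examined was at 0 counts in all libraries. In bulk liver, fewer cells of a type and less RNA per cell cannot be told apart. Libraries also differed in GC slope, that is, in how far genes with GC-rich 3′ ends read higher or lower in a library than they did on average. The slope was beyond 0.3 in size in 4 libraries: night-restricted replicate 1 at ZT02 (0.357), ZT06 (0.352) and ZT22 (0.413), and incompletely adapted arrhythmic replicate 1 at ZT10 (-0.312). Calls that turn on these 4 libraries are given with and without them.

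The genes lie in few places of the genome (GENCODE M21, GRCm38). Adh1, Adh4 and Adh5 are on the plus strand of chromosome 3 within 194.5 kb, from 138260991 to 138455499. Rdh16, Rdh16f2, Rdh7 and Hsd17b6 are on chromosome 10 within 206.5 kb, from 127801152 to 128007611. Aldh2 is on chromosome 5, Rdh11 on chromosome 12 and Aldh1a1 on chromosome 19. Rdh16f2 was the one member whose last 500 transcript bases shared words of 50 bases with another gene on the same strand, 12 of 451 words (2.66 percent), with Rdh1. Reads of that stretch could be split between Rdh16f2 and Rdh1, which was below the filter on low counts.

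Rhythm was described by a 24 h cosine fitted to each paradigm, which gives a peak time and a peak-to-trough range on the log2 scale with its standard error (SE). A rhythm, or a difference in rhythm or mean level between paradigms, is called where edgeR's quasi-likelihood test passed a false discovery rate of 0.05 over all genes tested. The range has no value below 0, also for a gene with no daily course. Where libraries of 2 times within a paradigm are said not to overlap, the times were mostly picked for their high and low means. Lack of overlap is thus partly built in, and its share over all genes was not computed. Of the 10 genes, rhythm was called for 1 under incompletely adapted arrhythmic feeding (Adh4, against 3.63 percent of all genes tested), for 2 under arrhythmic feeding (Adh1 and Adh4, against 3.37 percent), and for 3 under night-restricted feeding (Adh5, Rdh16 and Hsd17b6, against 29.9 percent). Under ad libitum feeding edgeR called 0 of the 10 (against 7.48 percent), DESeq2 also 0, and 3 had an unadjusted p under 0.05. These contrasts were in view when the genes were chosen, so nothing is read from the counts. The median range of the 10 genes was 0.53 under incompletely adapted arrhythmic, 0.44 under arrhythmic, 0.65 under night-restricted and 0.40 under ad libitum feeding, and that of all genes tested was 0.42 under incompletely adapted arrhythmic, 0.43 under arrhythmic, 0.70 under night-restricted and 0.52 under ad libitum feeding.

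**Figure D1:**
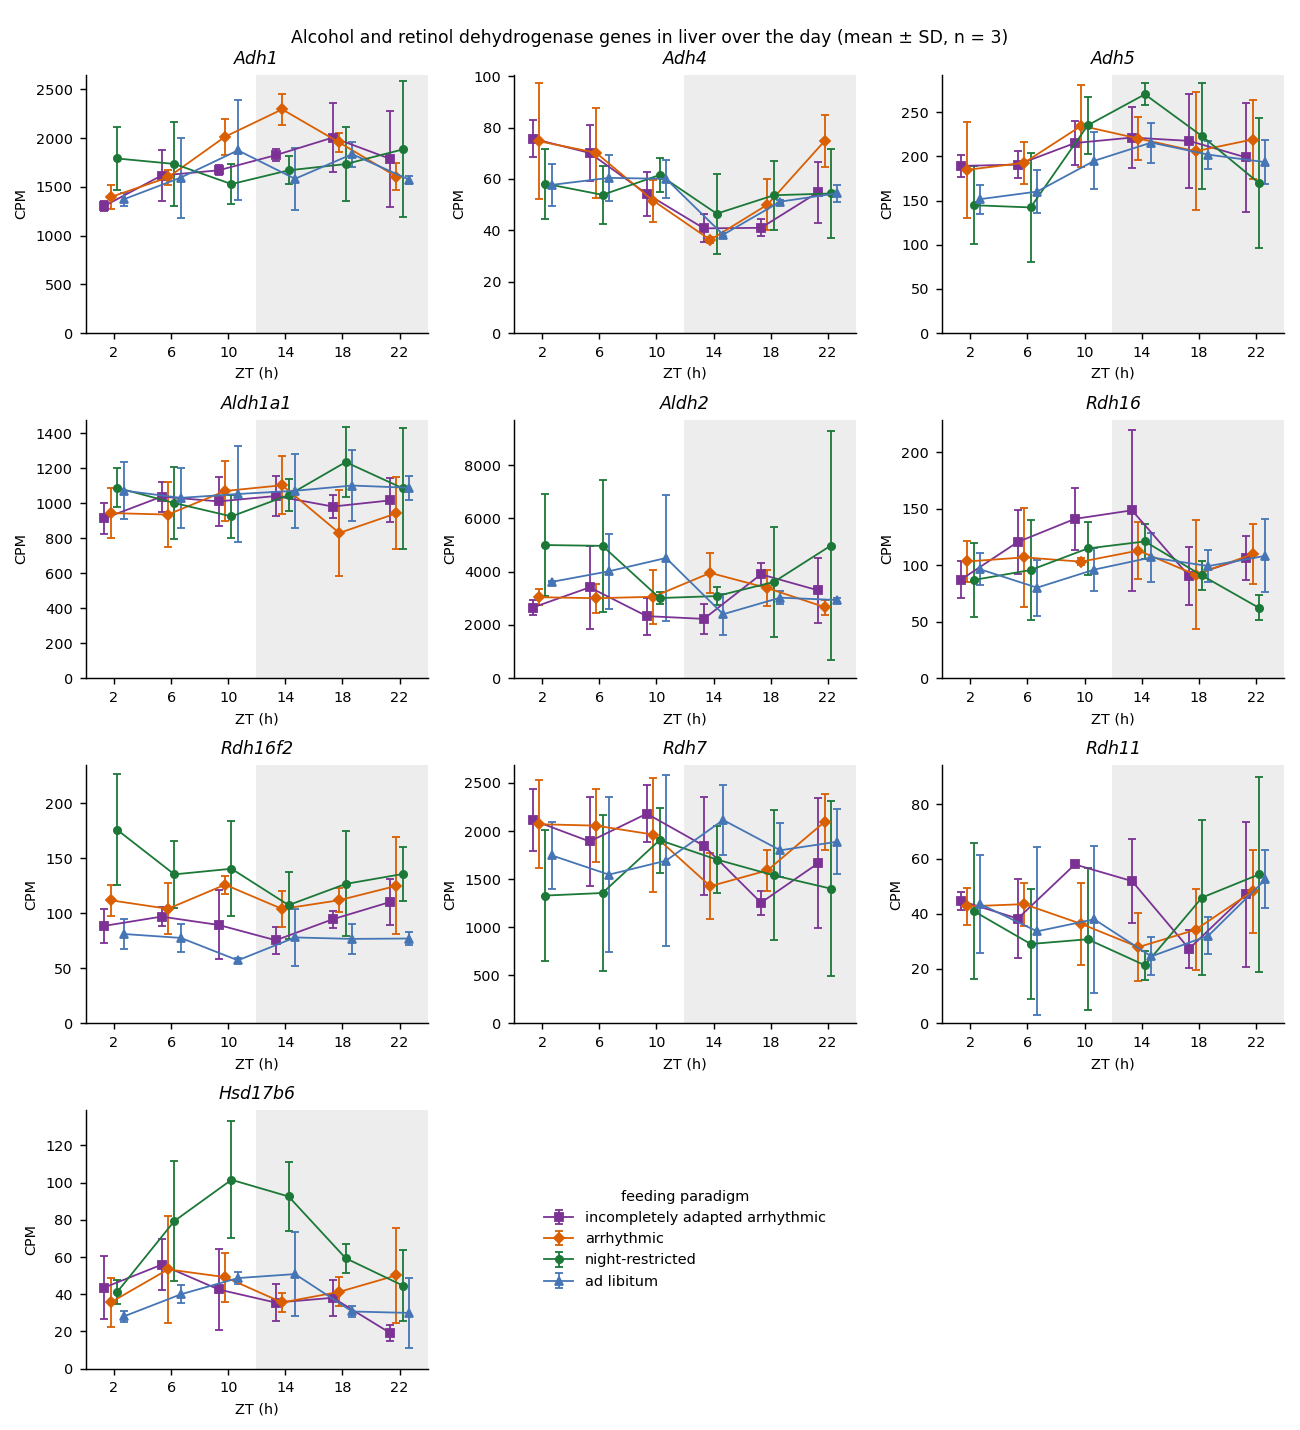
Level of each of the 10 genes in CPM (vertical axis, mean ± SD of 3 libraries) against ZT in hours (horizontal axis) under incompletely adapted arrhythmic, arrhythmic, night-restricted and ad libitum feeding, with the dark phase shaded. Adh4 is lowest at ZT14 in all 4 paradigms, and Hsd17b6 reaches 101.5 ± 31.5 CPM at ZT10 under night-restricted feeding.

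Adh1, the class I alcohol dehydrogenase that oxidises ethanol and retinol (ENSMUSG00000074207.10, chromosome 3, 138260991 to 138290698), had its widest daily course under arrhythmic feeding. In that paradigm its level was 1272, 1510 and 1406 CPM at ZT02 and 2364, 2406 and 2116 CPM at ZT14. The libraries of the 2 times did not overlap. Under night-restricted feeding it was 2151, 1689 and 1533 CPM at ZT02 and 1798, 1512 and 1699 CPM at ZT14. The night-restricted libraries of the 2 times overlapped, and the highest of them at ZT02 was replicate 1, a library of extreme GC slope. At ZT02 all 3 arrhythmic libraries were below all 3 night-restricted libraries, also without that replicate. At ZT10 and ZT14 all 3 arrhythmic libraries were above them. How many of all genes separate at as many times was not counted, so nothing is read from this. The fitted range was 0.54 ± 0.21 (SE) with a peak at ZT 16.6 under incompletely adapted arrhythmic, 0.92 ± 0.21 with a peak at ZT 13.9 under arrhythmic, 0.39 ± 0.21 with a peak at ZT 23.5 under night-restricted and 0.32 ± 0.21 with a peak at ZT 12.8 under ad libitum feeding.

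Adh1 was the 1 gene of the 10 whose rhythm difference between arrhythmic and night-restricted feeding was called (range difference 0.53), against 3.89 percent of all genes tested. The call was lost without the 4 libraries of extreme GC slope, where the range difference was 0.69, without night-restricted ZT02 replicate 1, and when replicate 1 or replicate 2 of every group was left out. It held with a GC slope covariate, where the ranges were 0.62, 0.71, 0.31 and 0.50 under incompletely adapted arrhythmic, arrhythmic, night-restricted and ad libitum feeding and rhythm was called in all of these but night-restricted feeding. The rhythm under arrhythmic feeding was not called without arrhythmic ZT14 replicate 2, nor when any 1 of the 3 replicate numbers was left out of every group. Over the whole day Adh1 averaged 1702 ± 320, 1811 ± 333, 1724 ± 358 and 1639 ± 310 CPM (SD, n = 18 each) under incompletely adapted arrhythmic, arrhythmic, night-restricted and ad libitum feeding, and each step of that order was smaller than 1 SD.

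Adh4, the class II alcohol dehydrogenase, which acts on retinol and on longer alcohols (ENSMUSG00000037797.14, chromosome 3, 138415466 to 138430892), was lowest at ZT14, early in the dark phase, under every paradigm. At ZT14 its level was 42.2, 34.8 and 45.3 CPM under incompletely adapted arrhythmic, 37.5, 35.1 and 36.2 CPM under arrhythmic, 28.7, 53.2 and 57.5 CPM under night-restricted, and 38.9, 38.4 and 37.6 CPM under ad libitum feeding. Its highest mean was 75.7 ± 7.1 CPM at ZT02 under incompletely adapted arrhythmic, 74.7 ± 10.1 CPM at ZT22 under arrhythmic, 61.5 ± 6.8 CPM at ZT10 under night-restricted and 60.4 ± 9.1 CPM at ZT06 under ad libitum feeding. The libraries of the highest and lowest time did not overlap under incompletely adapted arrhythmic, arrhythmic and ad libitum feeding. They did under night-restricted feeding. Those times were picked by their means, so nothing is read from the lack of overlap.

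The fitted range of Adh4 was 0.88 ± 0.17 (peak ZT 3.6) under incompletely adapted arrhythmic, 0.81 ± 0.17 (peak ZT 1.9) under arrhythmic, 0.26 ± 0.17 (peak ZT 3.4) under night-restricted and 0.48 ± 0.17 (peak ZT 4.2) under ad libitum feeding. The fitted peak of Adh4 thus lay within the first hours of light in all 4 paradigms. Rhythm was called only under the arrhythmic ones, and the night-restricted peak had an SE of 2.4 h. Both arrhythmic calls held in each of the 72 fits that left out 1 library, with a GC slope covariate and without the 4 libraries of extreme slope. The call under incompletely adapted arrhythmic feeding was lost when replicate 2 or replicate 3 of every group was left out, and that under arrhythmic feeding when replicate 1 or replicate 3 was. The rhythm difference between arrhythmic and night-restricted feeding was not called for Adh4 (range difference 0.54). Its mean over the day was 56.1 ± 15.3, 59.6 ± 18.8, 54.7 ± 12.2 and 53.7 ± 9.3 CPM (SD, n = 18 each) under incompletely adapted arrhythmic, arrhythmic, night-restricted and ad libitum feeding, each step of their order smaller than 1 SD.

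The start regions of Adh1 and Adh4 are shown because these 2 genes carried the rhythm calls under the arrhythmic paradigms, and because a short clock-factor motif was found in each. Both are RefSeq windows of GRCm38.p6 on the plus strand, from 250 bases before the start to 30 bases after it, 5′ to 3′. The capitals mark CACGTG, the E-box bound by CLOCK and BMAL1, in Adh1 (chr3:138277335-138277614), and TAGGTCA, the core of the element bound by ROR and REV-ERB receptors, in Adh4 (chr3:138415247-138415526).
Adh1: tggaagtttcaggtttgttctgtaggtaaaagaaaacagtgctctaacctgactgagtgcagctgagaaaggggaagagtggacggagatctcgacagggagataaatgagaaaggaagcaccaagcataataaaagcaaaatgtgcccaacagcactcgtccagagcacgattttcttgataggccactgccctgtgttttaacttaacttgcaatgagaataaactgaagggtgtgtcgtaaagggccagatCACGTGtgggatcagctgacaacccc
Adh4: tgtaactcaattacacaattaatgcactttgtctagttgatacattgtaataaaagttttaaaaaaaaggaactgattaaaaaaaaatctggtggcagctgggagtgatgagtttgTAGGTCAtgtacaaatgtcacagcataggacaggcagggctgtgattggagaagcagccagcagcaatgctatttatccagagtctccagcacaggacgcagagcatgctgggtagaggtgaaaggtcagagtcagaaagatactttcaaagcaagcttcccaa

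The E-box of Adh1 begins 5 bases after the RefSeq start, which lies inside the longer GENCODE gene, and the TAGGTCA of Adh4 begins 134 bases before it. Windows of 300 bases were searched on both strands. CACGTG was in 7.15 percent of 32851 windows and, of the 9 members with a window, in Adh1 and Rdh11, where it occurred at 230 and at 182 bases before the start. TAGGTCA was in 2.61 percent of windows and in Adh4. The D-box letters TTATGTAA (0.938 percent) and TTACGTAA (0.119 percent) and the direct-repeat form of the retinoic acid response element (0.00913 percent) were in none of the 14 windows of the 9 members. TATAAA was in 13.6 percent of windows and in Adh5, Rdh16 and Rdh16f2. None of the searched motifs overlaps another in the windows printed. A match is a run of letters and not shown to be a bound site.

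Adh5, the class III enzyme that oxidises the glutathione adduct of formaldehyde (ENSMUSG00000028138.8, chromosome 3, 138443093 to 138455499), had its widest course under night-restricted feeding. There it was 97.3, 184 and 153 CPM at ZT02, 85.8, 209 and 132 CPM at ZT06, and 256, 276 and 278 CPM at ZT14. All 3 libraries at ZT14 were above all libraries of the first 2 times, and replicate 1 was the lowest at both of those times. The range was 0.33 ± 0.18 (peak ZT 15.3) under incompletely adapted arrhythmic, 0.45 ± 0.18 (peak ZT 13.8) under arrhythmic, 0.91 ± 0.18 (peak ZT 14.5) under night-restricted and 0.47 ± 0.18 (peak ZT 15.3) under ad libitum feeding. The 4 fitted peaks lay early in the dark phase, but rhythm was called only under night-restricted feeding. The night-restricted rhythm was called under every alternative tried, and the rhythm differences between paradigms were not called. Adh5 averaged 206 ± 34.9, 210 ± 42.5, 198 ± 65.8 and 186 ± 30.5 CPM (SD, n = 18 each) under incompletely adapted arrhythmic, arrhythmic, night-restricted and ad libitum feeding, each step smaller than 1 SD. Under arrhythmic feeding the fitted peaks of Adh1 and Adh5 were thus ZT 13.9 and ZT 13.8, though rhythm was not called for Adh5. That of Adh4, which lies between them on the chromosome, was ZT 1.9.

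**Figure D2:**
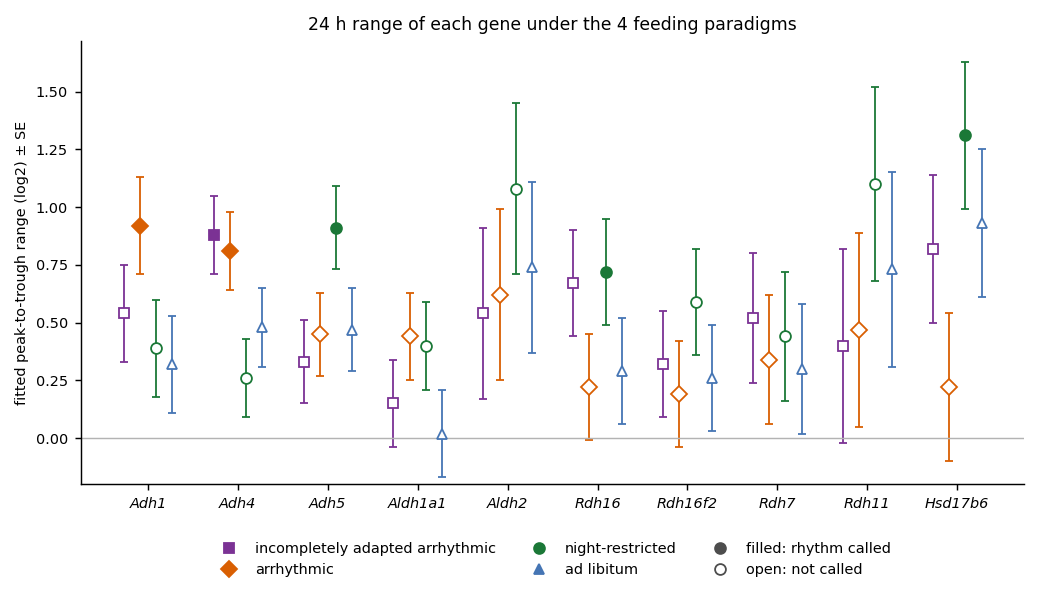
Fitted 24 h peak-to-trough range on the log2 scale with its SE (vertical axis) of each gene (horizontal axis) under incompletely adapted arrhythmic, arrhythmic, night-restricted and ad libitum feeding. Filled points mark called rhythms, which are Adh1 and Adh4 under arrhythmic feeding, Adh4 under incompletely adapted arrhythmic feeding, and Adh5, Rdh16 and Hsd17b6 under night-restricted feeding.

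Aldh1a1, the cytosolic enzyme that makes retinoic acid from retinaldehyde (ENSMUSG00000053279.6, chromosome 19, 20492715 to 20643465), was the flattest of the 10 genes under ad libitum feeding, with a range of 0.02 ± 0.19. Its ranges were 0.15 ± 0.19, 0.44 ± 0.19 and 0.40 ± 0.19 under incompletely adapted arrhythmic, arrhythmic and night-restricted feeding. The lowest, median and highest library were 810, 974 and 1164 CPM under incompletely adapted arrhythmic, 546, 972 and 1260 CPM under arrhythmic, 690, 1067 and 1451 CPM under night-restricted, and 750, 1092 and 1334 CPM under ad libitum feeding. The groups overlapped widely.

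Aldh2, the mitochondrial enzyme that oxidises acetaldehyde (ENSMUSG00000029455.14, chromosome 5, 121566027 to 121593824), had the widest library range under night-restricted feeding. The lowest, median and highest library were 1591, 2733 and 5189 CPM under incompletely adapted arrhythmic, 2232, 3050 and 4797 CPM under arrhythmic, 2019, 3138 and 9946 CPM under night-restricted, and 1762, 3123 and 7224 CPM under ad libitum feeding. In the night-restricted group replicates 1, 2 and 3 averaged 6151, 2889 and 3297 CPM over the 6 times, replicate 1 being the highest. The mean difference of arrhythmic minus night-restricted feeding was -0.45 ± 0.18 on the log2 scale in the fit to all libraries, -0.08 without the 4 libraries of extreme GC slope and -0.04 with the slope as a covariate. The fitted range under night-restricted feeding was 1.08 ± 0.37 and was not called by edgeR with all libraries. It was called by DESeq2 and in 8 of 72 fits that left out 1 library, and it was 0.12 both with a GC slope covariate and without the 4 libraries of extreme slope, where it was not called.

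Rdh16f2, a member of the Rdh16 family of short-chain dehydrogenases (ENSMUSG00000074639.6, chromosome 10, 127866474 to 127877317), had a lower mean under ad libitum feeding than under arrhythmic or night-restricted feeding at each of the 6 times. The incompletely adapted arrhythmic mean was below the ad libitum mean at ZT14 (75.5 against 78.1 CPM) and above it at the other times. These 2 groups were not compared by a test. The lowest, median and highest library were 57.6, 94.7 and 135 CPM under incompletely adapted arrhythmic, 80.3, 113 and 173 CPM under arrhythmic, 81.2, 127 and 226 CPM under night-restricted, and 55.2, 72.5 and 107 CPM under ad libitum feeding. At ZT10 the values were 132, 129 and 117 CPM under arrhythmic, 158, 172 and 91.4 CPM under night-restricted, and 59.3, 55.2 and 57.3 CPM under ad libitum feeding. At that time neither of the first 2 groups overlapped the ad libitum libraries. How many of all genes separate at ZT10 alone was not counted, so nothing is read from this time.

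The mean level of Rdh16f2 was 1.52 times higher under arrhythmic than under ad libitum feeding (log2 difference 0.60 ± 0.11) and 1.92 times higher under night-restricted than under ad libitum feeding (0.94 ± 0.11). Both differences were called. The arrhythmic libraries were all above the ad libitum libraries at 4 of 6 times, as were the night-restricted libraries. Of all genes tested, 0.173 percent were above ad libitum feeding in this way at 4 or more times under arrhythmic and 0.0944 percent under night-restricted feeding. Against night-restricted feeding, arrhythmic feeding gave a mean difference of -0.34 ± 0.11, and against arrhythmic feeding, incompletely adapted arrhythmic feeding gave -0.33 ± 0.11. Neither was called, although the mean was lower in the first of each pair at 6 of 6 times. The difference between arrhythmic and night-restricted feeding was called in 22 of 83 alternatives, among them DESeq2, the filter at 1 CPM, the replicate block and 18 of 72 fits that left out 1 library, and it was negative in all of them. Averages were 92.6 ± 18.5, 114 ± 21.3, 137 ± 38.9 and 74.7 ± 14.5 CPM (SD, n = 18 each) under incompletely adapted arrhythmic, arrhythmic, night-restricted and ad libitum feeding, and each step between neighbours in their order was smaller than 1 SD. The 2 called differences were 0.61 and 0.88 without the 4 libraries of extreme GC slope and remained called, while the arrhythmic against ad libitum difference was not called when replicate 2 of every group was left out.

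**Figure D3:**
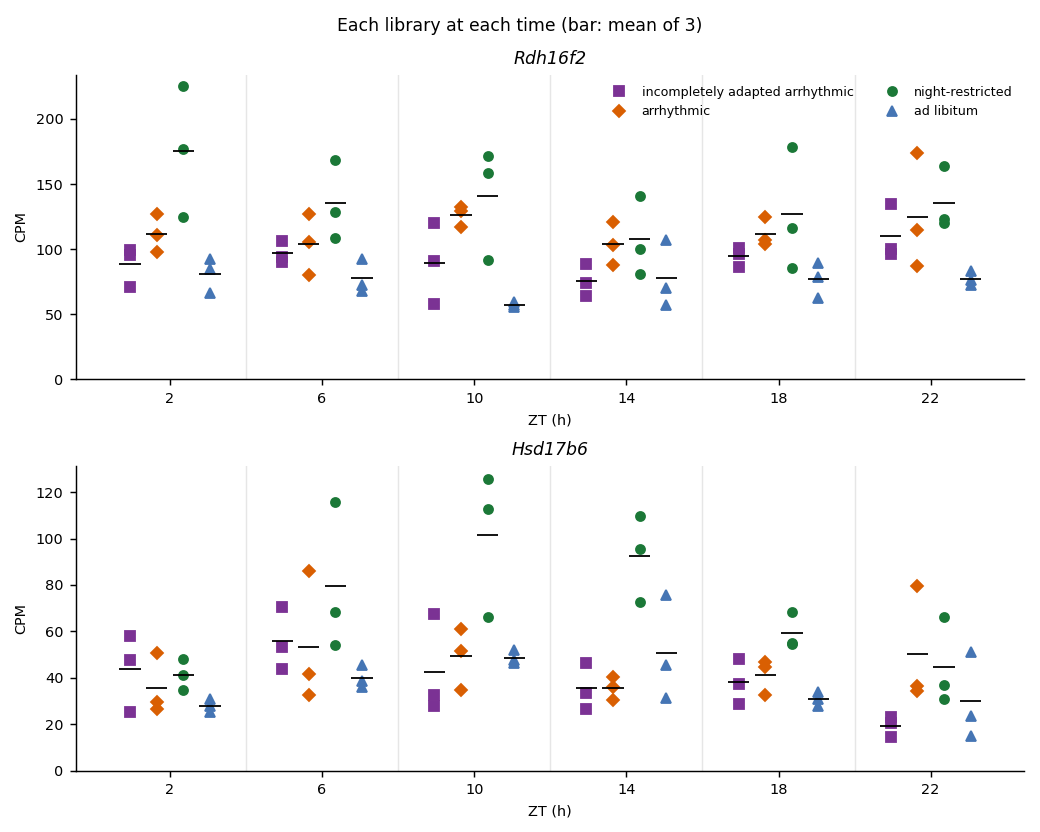
CPM of Rdh16f2 (upper panel) and Hsd17b6 (lower panel) in each library (points) with the mean of 3 (bars) against ZT in hours, under incompletely adapted arrhythmic, arrhythmic, night-restricted and ad libitum feeding from left to right at each time. The night-restricted libraries lie wholly above the ad libitum libraries at 4 of 6 times for both genes. This held for 0.0944 percent of all genes tested at 4 or more times.

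Hsd17b6, a short-chain dehydrogenase that acts on androgens and, in human, on retinol (ENSMUSG00000025396.7, chromosome 10, 127990936 to 128007611), stood out under night-restricted feeding. The lowest, median and highest library were 14.4, 35.5 and 70.7 CPM under incompletely adapted arrhythmic, 26.5, 38.5 and 86.0 CPM under arrhythmic, 30.9, 66.1 and 126 CPM under night-restricted, and 15.0, 34.8 and 75.6 CPM under ad libitum feeding. At ZT10 the libraries were at 67.4, 32.4 and 27.7 CPM under incompletely adapted arrhythmic, at 34.9, 51.6 and 61.0 CPM under arrhythmic, at 126, 113 and 66.0 CPM under night-restricted, and at 46.3, 47.6 and 52.1 CPM under ad libitum feeding. The night-restricted libraries were above both the arrhythmic and the ad libitum libraries at this time. They overlapped the incompletely adapted arrhythmic ones, of which the highest was at 67.4 CPM. How many of all genes separate at ZT10 alone was not counted, so nothing is read from this time.

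The mean level of Hsd17b6 was 0.636 times the night-restricted level under arrhythmic feeding (log2 difference -0.65 ± 0.16) and 1.86 times the ad libitum level under night-restricted feeding (0.89 ± 0.16), and both differences were called. Arrhythmic libraries were wholly below night-restricted libraries at 3 of 6 times, which held for 1.38 percent of all genes tested at 3 or more times. Night-restricted libraries were wholly above ad libitum libraries at 4 of 6 times, which held for 0.0944 percent of all genes tested at 4 or more times. Without the 4 libraries of extreme GC slope the first difference was -0.56 and not called, and the second was 0.81 and called. Neither was called when replicate 1 of every group was left out. The fitted range was 0.82 ± 0.32 (peak ZT 8.1) under incompletely adapted arrhythmic, 0.22 ± 0.32 (peak ZT 9.0) under arrhythmic, 1.31 ± 0.32 (peak ZT 10.9) under night-restricted and 0.93 ± 0.32 (peak ZT 11) under ad libitum feeding. The fitted night-restricted and ad libitum peaks nearly coincided, though rhythm was not called under ad libitum feeding. The night-restricted rhythm was not called when replicate 1 or replicate 2 of every group was left out. The rhythm difference between arrhythmic and night-restricted feeding was not called, with a range difference of -1.08.

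Rdh16, a microsomal NAD-dependent retinol dehydrogenase (ENSMUSG00000069456.4, chromosome 10, 127801152 to 127846565), was called rhythmic under night-restricted feeding, with a range of 0.72 ± 0.23 and a peak at ZT 11. Its libraries there were at 139, 111 and 114 CPM at ZT14 and at 50.5, 63.7 and 72.5 CPM at ZT22, with no overlap. Ranges were 0.67 ± 0.23 at ZT 11.8, 0.22 ± 0.23 and 0.29 ± 0.23 under incompletely adapted arrhythmic, arrhythmic and ad libitum feeding. The range under incompletely adapted arrhythmic feeding was thus close to the night-restricted one, and the rhythm differences were not called. The night-restricted call held in 49 of 72 fits that left out 1 library, and it was lost with a GC slope covariate (range 0.64), without the 4 libraries of extreme slope (0.67), and when replicate 1, 2 or 3 was left out of every group. Over all alternatives the range stayed between 0.54 and 0.90. Averages were 116 ± 39, 105 ± 27.3, 95.4 ± 29.6 and 97.9 ± 20.8 CPM (SD, n = 18 each) under incompletely adapted arrhythmic, arrhythmic, night-restricted and ad libitum feeding, each step smaller than 1 SD.

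Rdh7, another microsomal retinol dehydrogenase of the same cluster (ENSMUSG00000040134.8, chromosome 10, 127884028 to 127888817), ran from 964 to 2448 CPM under incompletely adapted arrhythmic, from 1034 to 2598 CPM under arrhythmic, from 353 to 2295 CPM under night-restricted and from 672 to 2513 CPM under ad libitum feeding. Replicates 1, 2 and 3 of the night-restricted group averaged 853, 1783 and 1981 CPM, replicate 1 being the lowest. The fitted ranges, from 0.30 ± 0.28 under ad libitum to 0.52 ± 0.28 under incompletely adapted arrhythmic feeding, were not called. With a replicate block the night-restricted rhythm was called.

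Rdh11, a microsomal NADPH-dependent reductase of retinaldehyde (ENSMUSG00000066441.14, chromosome 12, 79174337 to 79192293), averaged 44.5 ± 15.6, 38.8 ± 12.6, 37.0 ± 24 and 37.4 ± 18.5 CPM (SD, n = 18 each) under incompletely adapted arrhythmic, arrhythmic, night-restricted and ad libitum feeding. Its lowest mean was at ZT14 under arrhythmic (27.8 ± 12.5 CPM), night-restricted (21.2 ± 5.3 CPM) and ad libitum feeding (24.4 ± 6.9 CPM), and at ZT18 under incompletely adapted arrhythmic feeding (27.2 ± 6.9 CPM). The fitted range was 1.10 ± 0.42 at ZT 22.6 under night-restricted feeding. That rhythm was not called in the fit to all libraries, and it was called with a GC slope covariate and without the 4 libraries of extreme slope.

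Over the comparisons of mean level, 1 of the 10 genes was called between arrhythmic and night-restricted feeding (Hsd17b6, lower, against 5.16 percent of all genes tested lower and 1.76 percent higher). For arrhythmic against ad libitum feeding it was 1 (Rdh16f2, higher, against 0.661 percent higher and 1.44 percent lower), and for night-restricted against ad libitum feeding 2 (Hsd17b6 and Rdh16f2, both higher, against 0.724 percent higher and 0.897 percent lower). The 3 comparisons share groups, so these values are not independent of each other. For incompletely adapted arrhythmic against arrhythmic feeding edgeR called 0 of the 10 and 0 percent of all genes, and DESeq2 also called 0 of both. By edgeR's test 1 of the 10 had an unadjusted p under 0.05, as did 639 of the 12712 genes tested. For rhythm differences beyond arrhythmic against night-restricted feeding, edgeR and DESeq2 each called 0 of the 10. Of all genes, edgeR called 0.0236 percent between arrhythmic and ad libitum feeding and 0 percent in the other pairs, where DESeq2 called 15 genes between night-restricted and ad libitum feeding and 0 between incompletely adapted arrhythmic and arrhythmic feeding. At an unadjusted p under 0.05 the number of the 10 genes was 0 for arrhythmic against ad libitum, 1 for night-restricted against ad libitum and 0 for incompletely adapted arrhythmic against arrhythmic feeding. In the same order it was 1150, 1109 and 310 of the 12712 genes tested. Median mean differences of the 10 genes were 0.00, 0.10, 0.08 and -0.08 (log2) for arrhythmic minus night-restricted, arrhythmic minus ad libitum, night-restricted minus ad libitum, and incompletely adapted arrhythmic minus arrhythmic feeding, and those of all genes tested were 0.00, -0.01, -0.01 and 0.01.

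Replicates at the same time and paradigm differed in a way that ran in opposite directions among the 10 genes. Deviations of a gene from the mean of its 3 libraries were not used to choose the genes, and they were set against the GC slope of the library, also taken from its group mean. Over 72 libraries Pearson's r was 0.89 for Aldh2 (Spearman's rho 0.85) and 0.85 for Adh1 (rho 0.81), and -0.83 for Rdh11 (rho -0.80) and -0.79 for Rdh7 (rho -0.71). For all 4 the permutation p, with slopes permuted within groups, was 1e-05 by both measures, the smallest these permutations can give, and 2.5e-05 adjusted by Benjamini-Hochberg over the 10 genes. Libraries high in Aldh2 and Adh1 were thus low in Rdh7 and Rdh11. For Adh5 r was -0.65 (rho -0.57, adjusted permutation p = 0.00012 and 0.00022), for Adh4 -0.53 (rho -0.48, 0.00074 and 0.0013) and for Rdh16 -0.49 (rho -0.51, 0.00018 and 0.00032). The slope was computed from the same libraries, over a set of genes that can include these 10. Some relation is thus built in, and the share of all genes that would pass was not computed. Libraries of the same replicate number deviated together within a paradigm, which the permutations ignore, so the permutation p-values may be too small.

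Aldh1a1 (r = 0.26, rho = 0.21, adjusted permutation p = 0.13 and 0.17), Rdh16f2 (r = 0.25, rho = 0.22, 0.089 and 0.15) and Hsd17b6 (r = -0.02, rho = -0.04, 0.9 and 0.81) did not pass. Within incompletely adapted arrhythmic, arrhythmic, night-restricted and ad libitum feeding r was 0.17, 0.11, 0.48 and -0.06 for Rdh16f2 and -0.09, 0.15, -0.05 and -0.06 for Hsd17b6. Without the 2 libraries farthest from the median slope, r was 0.87 for Aldh2, 0.81 for Adh1, -0.80 for Rdh11 and -0.75 for Rdh7. Within incompletely adapted arrhythmic, arrhythmic, night-restricted and ad libitum feeding it was 0.88, 0.95, 0.97 and 0.70 for Aldh2, 0.82, 0.66, 0.96 and 0.86 for Adh1, -0.80, -0.84, -0.91 and -0.77 for Rdh11, and -0.39, -0.76, -0.95 and -0.90 for Rdh7. The SD between replicates, pooled over the 24 groups on the log2 scale, was lowest for Adh1 (0.24) and highest for Rdh11 (0.80), and 17.2 and 92.8 percent of 6466 genes of at least 10 CPM had a smaller one. The median over those genes was 0.34.

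**Figure D4:**
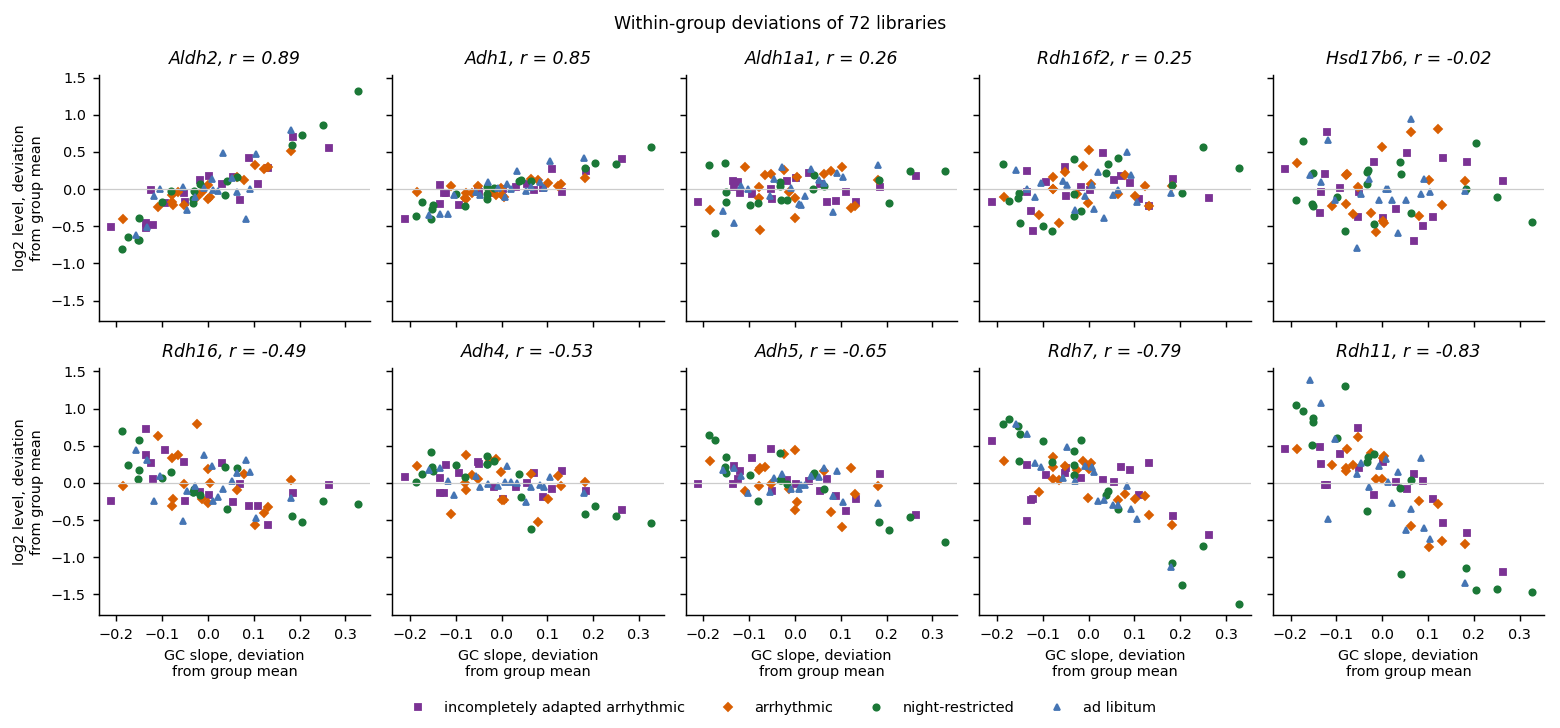
Deviation of each gene's log2 level from the mean of its group (vertical axis) against the deviation of the library's GC slope from its group mean (horizontal axis) in 72 libraries, coloured by feeding paradigm, with Pearson's r above each panel. Points rise with the slope for Aldh2 and Adh1, fall with it for Rdh7 and Rdh11, and show no trend for Hsd17b6 (r = -0.02).

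For each gene the non-member genes whose 24 group means followed its own most closely were listed among 6456 genes of at least 10 CPM, by Pearson's r of log2 levels. They are a description, since group means share libraries and composition. All 72 libraries were used, the 4 of extreme GC slope included, and r was not computed without them. Deviations of Aldh2 and Rdh7 followed that slope at r = 0.89 and -0.79, and whether their likeness to other genes depends on it was not tested. The closest were Sfxn1 (0.79), Tk1 (0.79) and Papss2 (0.78) for Adh1, Prkd3 (0.86), Smu1 (0.85) and Nit2 (0.85) for Adh4, and Mpc2 (0.93), Atp5f1 (0.92) and Ndufv2 (0.92) for Adh5. For Rdh16f2 they were Cyp2b9 (0.82), Prlr (0.78) and Cic (0.77), and for Hsd17b6 Pla2g12a (0.89), Nsmce4a (0.80) and Rgp1 (0.77). Aldh2 was followed by Pebp1 (0.97), Sympk (0.96) and Scrn2 (0.96), Rdh7 by Lars (0.96), Akr1c13 (0.95) and Laptm4a (0.95), and Rdh11 by Rala (0.83), Rabep1 (0.82) and Acsl5 (0.82). For Rdh16 they were Pdk1 (0.86), Ildr2 (0.85) and Ndel1 (0.84), and for Aldh1a1 Orm3 (0.70), Ces1g (0.62) and Nat8 (0.60), the lowest values of the 10.

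Around these enzymes, 73 other genes of alcohol, retinoid and steroid handling were listed, of which 52 passed the filter on low counts. The lists were drawn up with earlier results of these data known, so the p-values given for their genes are descriptive. Rhythm was called by edgeR for 4 of the 52 under incompletely adapted arrhythmic, 1 under arrhythmic, 17 under night-restricted and 3 under ad libitum feeding, against 3.63, 3.37, 29.9 and 7.48 percent of all genes tested. Cyp2e1, the ethanol-oxidising cytochrome P450, and Cyp26a1, which clears retinoic acid, were among the 17 called under night-restricted feeding.

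Of retinoid storage and transport genes, 8 of 10 were tested. Stra6l, a liver receptor for the plasma retinol carrier, was called in all 4 paradigms. Its lowest mean was at ZT14 and its highest at ZT02 in each: 25.8 ± 2.2 and 52.5 ± 3.9 CPM under incompletely adapted arrhythmic, 30.7 ± 2.0 and 49.7 ± 2.1 CPM under arrhythmic, 28.1 ± 2.5 and 54.8 ± 6.5 CPM under night-restricted, and 24.8 ± 0.77 and 52.0 ± 6.2 CPM under ad libitum feeding (SD, n = 3). By edgeR's test the adjusted p was 3.06e-07 under incompletely adapted arrhythmic, 0.033 under arrhythmic, 2.74e-10 under night-restricted and 1.8e-08 under ad libitum feeding. The rhythm differed between arrhythmic and night-restricted feeding (ranges 0.48 ± 0.12 and 1.15 ± 0.12, adjusted p = 0.0343). Pnpla3, a lipid droplet acyl hydrolase, ran from 0.323 to 16 CPM under arrhythmic, from 0 to 21.3 CPM under night-restricted and from 0.275 to 13.2 CPM under ad libitum feeding. Its range was 1.91 ± 0.75 under arrhythmic, 4.49 ± 0.92 under night-restricted and 4.10 ± 0.78 under ad libitum feeding, and arrhythmic feeding differed from both (edgeR adjusted p = 0.00241 and 0.0396). Its trough lay near 0 CPM, where the fitted range is imprecise. The difference from night-restricted feeding was not called when replicate 1 or replicate 2 of every group was left out. That from ad libitum feeding was not called when replicate 1, 2 or 3 was left out, with time as a factor, or without a low-count filter. Under night-restricted feeding neither Rbp4, the plasma carrier (range 0.35 ± 0.17, edgeR adjusted p = 0.23), nor Lrat, which esterifies retinol for storage (0.51 ± 0.26, adjusted p = 0.236), was called.

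Of genes that bind, sense or clear retinoic acid, 8 of 10 were tested and 3 were called under night-restricted feeding. Cyp26a1 was at 2.20 ± 2.1 CPM at ZT06 and 20.5 ± 1.5 CPM at ZT14 in that paradigm (range 2.94 ± 0.70 at ZT 18.2, edgeR adjusted p = 0.00628). Under arrhythmic feeding its range was 1.66 ± 0.66 and not called (adjusted p = 0.288), and the difference was not called either (edgeR adjusted p = 0.152). The retinoid X receptors Rxra (0.62 ± 0.14 at ZT 7.1, edgeR adjusted p = 0.00217) and Rxrb (0.89 ± 0.26 at ZT 4.3, adjusted p = 0.0276) were the other 2.

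Among other retinol dehydrogenases and retinal reductases, 7 of 15 were tested. Dhrs3, a retinal reductase, was called under incompletely adapted arrhythmic (range 1.18 ± 0.20 at ZT 23.2, edgeR adjusted p = 0.000278), night-restricted (1.20 ± 0.20 at ZT 1.7, adjusted p = 2.87e-05) and ad libitum feeding (0.74 ± 0.20 at ZT 2.1, adjusted p = 0.0403). Its range under arrhythmic feeding was 0.70 ± 0.20 (adjusted p = 0.0958). The peaks of Dhrs3 and Stra6l lay in a window from ZT 22.4 to ZT 2.7 in all paradigms.

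Of other alcohol and aldehyde dehydrogenases 13 of 20 were tested, and 3 were called under night-restricted feeding, with a median range of 0.40 for the list and 0.70 for all genes. These were Adh7, the class IV alcohol dehydrogenase (range 0.94 ± 0.21 at ZT 14.6, edgeR adjusted p = 0.00117), Aldh3a2, the fatty aldehyde dehydrogenase (1.22 ± 0.38, adjusted p = 0.0321), and Aldh6a1, an enzyme of valine breakdown (1.40 ± 0.45, adjusted p = 0.0471). Adh7 was also called under incompletely adapted arrhythmic feeding (0.84 ± 0.20 at ZT 15.4, edgeR adjusted p = 0.0179). Aldh7a1 and Aldh8a1, enzymes of amino acid breakdown, had higher mean levels under arrhythmic than under night-restricted feeding (log2 differences 0.26 ± 0.09 and 0.32 ± 0.08, edgeR adjusted p = 0.0473 and 0.0113).

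In the list of ethanol, acetate and formaldehyde handling, 4 of 5 genes were tested and 2 were called under night-restricted feeding. Cyp2e1 was at 866 ± 498 CPM at ZT22 and 2298 ± 83.4 CPM at ZT14 (range 1.54 ± 0.22 at ZT 12.5, edgeR adjusted p = 9.43e-07). Its range was 0.53 ± 0.22, 0.52 ± 0.22 and 0.66 ± 0.22 under incompletely adapted arrhythmic, arrhythmic and ad libitum feeding, and the difference between arrhythmic and night-restricted feeding was not called (edgeR adjusted p = 0.0671). Acss2, a cytosolic acetyl-CoA synthetase, had a fitted peak at ZT 15.5 under arrhythmic feeding (range 0.64 ± 0.29), where its rhythm was not called. Under night-restricted feeding it peaked at ZT 1.6 (1.16 ± 0.29). The rhythm difference was called (edgeR adjusted p = 0.0219), but not when replicate 1 or replicate 2 of every group was left out.

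Among androgen and steroid genes 12 of 13 were tested, and 5 were called under night-restricted feeding: Akr1d1, a reductase of bile acid synthesis (1.09 ± 0.22, edgeR adjusted p = 0.000468), Hsd3b2, Hsd17b12, Hsd11b1 and Hsd17b11 (adjusted p = 0.00891, 0.00817, 0.0231 and 0.0306). Hsd17b2 was called under incompletely adapted arrhythmic feeding (0.66 ± 0.17, edgeR adjusted p = 0.0379). Hsd17b12, a reductase of fatty acid elongation, had a lower mean under arrhythmic than under night-restricted feeding (-0.46 ± 0.10, edgeR adjusted p = 0.00485) and than under ad libitum feeding (-0.56 ± 0.10, adjusted p = 0.000439). Its rhythm also differed from night-restricted feeding (ranges 0.30 ± 0.20 and 0.78 ± 0.20, edgeR adjusted p = 0.04997). Srd5a1, a steroid reductase that acts on testosterone, was higher under arrhythmic than under night-restricted feeding (0.34 ± 0.10, edgeR adjusted p = 0.0285).

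Of the 35 called values of these other genes, 14 were not called without the 4 libraries of extreme GC slope and 7 were not called with the slope as a covariate. Those lost in both were the night-restricted rhythms of Aldh3a2, Aldh6a1, Rxrb and Hsd17b12, the mean difference of Aldh7a1, and the rhythm differences of Stra6l and Hsd17b12 between arrhythmic and night-restricted feeding. Without the 4 libraries the night-restricted ranges of the first 4 were 0.96, 0.97, 0.82 and 0.48, the mean difference of Aldh7a1 was 0.18, and the range differences of Stra6l and Hsd17b12 were -0.63 and -0.20. Also not called without the 4 libraries were the mean differences of Aldh8a1 (0.23), Hsd17b12 (-0.33) and Srd5a1 (0.30) between those paradigms. The rhythms of Hsd17b2 (range 0.67), Hsd17b11 (0.55), Hsd11b1 (0.50) and Hsd3b2 (0.88) were not called either, at ranges near those with all libraries.

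**Figure D5:**
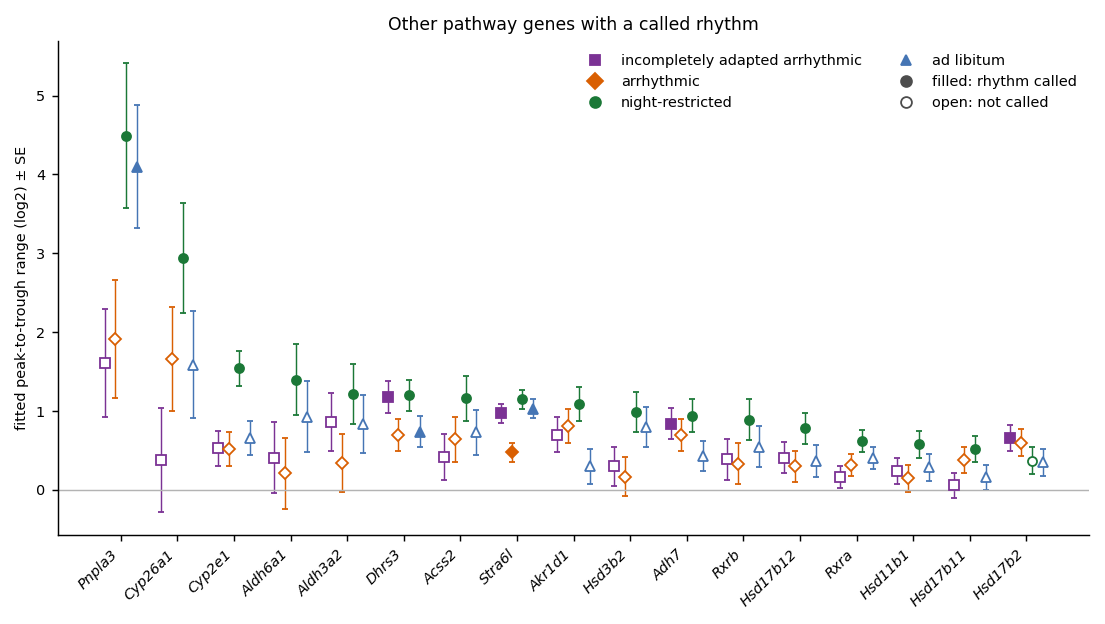
Fitted 24 h range on the log2 scale with its SE (vertical axis) for other pathway genes called rhythmic in at least 1 paradigm (horizontal axis), under incompletely adapted arrhythmic, arrhythmic, night-restricted and ad libitum feeding. Filled points mark called rhythms. All genes shown but Hsd17b2 are filled under night-restricted feeding, and Stra6l is filled in all 4 paradigms.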

How the data were processed

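Libraries were made with the Lexogen QuantSeq 3′ kit from TRIzol-extracted liver RNA, per the labels' protocols. Per the submitters' processing notes, STAR 2.4.2a was used for alignment, and both mm10 and GRCm38.p5 are listed as builds. The sources used here name no counting tool, strand setting or annotation, so overlapping and antisense genes could share reads. The authors deposited raw read counts for 51912 Ensembl genes in 72 libraries, and 0 columns were left out. They also deposited a table named TPM whose values equalled CPM computed from the counts to within 5.09e-11. It held 11508 genes and was not used further. Gene symbols and positions came from GENCODE M21, which named 51719 identifiers. The 193 others held 0.00309 percent of counts.

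The members and the pathway, marker and motif lists were chosen with earlier results of these data known. Genes were filtered with edgeR's filterByExpr over the 24 groups. Counts were scaled by TMM and fitted with edgeR 4.0.16 in R 4.3.3 (robust quasi-likelihood, with a mean and a 24 h cosine and sine term for each paradigm, and 60 residual degrees of freedom). Adjusted p-values are Benjamini-Hochberg over all 12712 genes, with a threshold of 0.05. Levels are CPM of the deposited counts, with SD between libraries, and SEs of ranges came from the delta method. Arrhythmic feeding was compared with night-restricted and with ad libitum feeding, night-restricted with ad libitum feeding, and the incompletely adapted arrhythmic with the arrhythmic paradigm. The scripts were tested on simulated data.

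The GC slope of a library was the slope of its log2(CPM + 0.5) deviations on the GC content of the last 500 transcript bases over 6463 genes of at least 10 CPM. Relations with it were tested with 100000 permutations within groups. Other pathway genes were named where called in any test, and Cyp26a1, Dhrs3, Lrat, Rbp4 and Cyp2e1 always, and 1 further gene of that rule is not reported here. Genes most like a member were the 3 of highest r. Promoters came from RefSeq. Alternatives were size factors of DESeq2 1.42.0, DESeq2 itself, other filters, time as a factor, a replicate block, the GC slope as a covariate, no libraries of extreme slope, and libraries or replicate numbers left out. The precision of a count is limited by the depth given with the results.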

Additional observations from a re-analysis of the deposited data

Results flagged for a closer look

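A difference in rhythm between 2 feeding paradigms, tested by the equality of the cosine and sine coefficients, was called for 5 genes. Adh1 had a range 0.53 larger (log2) under arrhythmic than under night-restricted feeding, with fitted peaks at ZT 13.9 and ZT 23.5. Its rhythm was not called under night-restricted feeding (range 0.39 ± 0.21), so no shift in peak time is read from these. Stra6l had a range difference of -0.67 for arrhythmic minus night-restricted feeding with peaks at ZT 1.0 and ZT 0.4. Pnpla3 had a range difference of -2.58 for arrhythmic minus night-restricted and of -2.19 for arrhythmic minus ad libitum feeding. Acss2 had a range difference of -0.52 and Hsd17b12 one of -0.48 for arrhythmic minus night-restricted feeding. Without the 4 libraries of extreme GC slope the differences of Adh1 (0.69), Stra6l (-0.63) and Hsd17b12 (-0.20) were not called, while those of Adh1 and Stra6l were of about the same size or larger. With the slope as a covariate that of Adh1 was 0.40 and called. None of the differences of these 5 genes was called when replicate 1 or replicate 2 of every group was left out.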

How the results depend on the processing

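The 4 called mean differences of the members kept their sign in all 83 alternatives and the called range difference of Adh1 in the 82 that give one (time as a factor gives none). A fitted range cannot change sign. Over all genes, the main counts of rhythmic genes were 462, 429, 3801 and 951 under incompletely adapted arrhythmic, arrhythmic, night-restricted and ad libitum feeding. Rhythm differences numbered 495 for arrhythmic against night-restricted (comparison 1), 3 for arrhythmic against ad libitum (comparison 2), 0 for night-restricted against ad libitum (comparison 3) and 0 for incompletely adapted arrhythmic against arrhythmic feeding (comparison 4). Mean differences numbered 880, 267, 206 and 0 in comparisons 1 to 4. With time as a factor the rhythmic genes were 300, 212, 1741 and 509 and the rhythm differences in comparison 1 were 52, and the rhythm calls of Adh1, Rdh16 and Hsd17b6 and the Adh1 rhythm difference were lost. A GC slope covariate gave 823, 890 and 1472 rhythmic genes in the paradigms other than night-restricted, rhythm differences of 33 and 39 and mean differences of 852 and 449 in comparisons 2 and 3. Without the 4 libraries of extreme slope there were 2383 rhythmic genes under night-restricted feeding, 160 rhythm differences and 117 mean differences in comparison 1, and 99 mean differences in comparison 3. Without a low-count filter, with more genes tested, rhythm differences were 248 and 0 in comparisons 1 and 2, mean differences were 389, 143 and 128 in comparisons 1 to 3, and the Rdh16 rhythm was lost. DESeq2 gave 881, 33 and 15 rhythm differences in comparisons 1 to 3 and 387 mean differences in comparison 3. Other counts under these settings stayed within 1.5 times.

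Replicate numbers are shared by the groups, but pairs of libraries with the same number did not all correlate above 0.1 in their deviations, so the numbers were not taken to pair samples. Within incompletely adapted arrhythmic, arrhythmic, night-restricted and ad libitum feeding the mean r was 0.35, 0.11, 0.41 and 0.27 for the same number and -0.18, -0.05, -0.18 and -0.14 for different numbers, so libraries of 1 number did deviate together within a paradigm. Between the paradigms of comparisons 1 to 4 the mean r for the same number was -0.04, 0.14, 0.02 and -0.11. With the replicate block the rhythmic genes were 724, 763 and 1788 in the paradigms other than night-restricted, rhythm differences 2273, 33 and 9 in comparisons 1 to 3, and mean differences 1808, 533, 704 and 8 in comparisons 1 to 4. The block added calls for Rdh7 and Rdh16f2 (night-restricted rhythm, and mean in comparison 1) and for Aldh2 (rhythm in comparison 1).

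Leaving out single libraries gave 354 to 596, 311 to 455, 2910 to 4722 and 727 to 1300 rhythmic genes. Rhythm differences in comparison 1 ran from 220 (without night-restricted ZT02 replicate 1) to 1250 (without night-restricted ZT18 replicate 1), in comparison 2 from 0 to 6 and in comparison 3 from 0 to 9. Mean differences ran from 384 to 1277, from 154 to 380 and from 125 to 458 in comparisons 1 to 3. Leaving replicate number 1, 2 or 3 out of every group gave 234, 141 and 312 rhythmic genes under incompletely adapted arrhythmic, 254, 127 and 192 under arrhythmic, 2238, 2309 and 2650 under night-restricted, and 402, 312 and 898 under ad libitum feeding. Rhythm differences were then 35, 6 and 438 in comparison 1, 0 in each fit in comparison 2, and 0, 0 and 3 in comparison 3. Mean differences were 143, 1055 and 1657 in comparison 1, 99, 15 and 332 in comparison 2, 39, 883 and 421 in comparison 3, and 6, 0 and 314 in comparison 4. The cause of these changes was not tested. The settings also differ in the number of libraries and genes that they remove or add. Rdh11, the member with the fewest reads, rests on 39 in its thinnest library.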
